A study of Homo sapiens with 9 samples.

Results

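The enzymes and scaffold proteins that carry out general mRNA decay were followed at the mRNA level in a human leukemia cell line after knockdown of KHSRP. The 36 genes were chosen by name: 12 of the RNA exosome, 10 of the CCR4-NOT complex, 3 other deadenylation genes (PAN2, PAN3 and PARN), 9 of decapping and 2 exonucleases that degrade RNA from the 5′ end. All 36 have a row among the 25540 gene symbols of the deposited table. Of these, 35 had a mean of at least 1 TPM (a gene's length-adjusted share of the transcripts in a library, scaled to a fixed total) and were tested among 10939 genes. DCP1B is listed at 0 in all 9 libraries and was not tested.

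The cells were CAL-1, an established human line of BPDCN, which stands for blastic plasmacytoid dendritic cell neoplasm, an aggressive leukemia that arises from plasmacytoid dendritic cells. In all, 3 groups of 3 RNA sequencing libraries were compared: a control group labelled NTC, with genotype WT, and groups labelled KHSRPi#1 and KHSRPi#2, both with genotype KHSRP knockdown. KHSRP was lowered by CRISPR interference, in which a catalytically dead Cas9 directed by a guide RNA represses transcription of its target. What #1 and #2 stand for is not stated; the labels name no time point or other agent, and do not say whether lines were clones or replicates were separate cultures. The p-values below therefore reflect library-to-library spread, which could be purely technical.

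Most cytoplasmic mRNAs are degraded in an ordered way. PAN2-PAN3 and CCR4-NOT shorten the poly(A) tail, after which the DCP2 complex removes the 5′ cap and XRN1 digests the body of the mRNA, or the exosome digests it from the 3′ end. KHSRP, also called KSRP, binds AU-rich elements in 3′ untranslated regions and is known to bring PARN, the exosome and decapping factors to the bound mRNA. The genes below encode that machinery, so the comparison asks whether its own mRNAs differed when KHSRP was low.

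KHSRP mRNA stood between 216 and 253 TPM in the 3 controls and between 33.7 and 36.5 TPM in the 6 knockdown libraries, and its log2 fold change was -2.72 (SE 0.055, limma adjusted p = 1.75e-09). Of 10 plasmacytoid dendritic cell markers, 8 averaged at least 1 TPM, with summed levels, mostly IRF8 and TCL1A, of 3474 to 3972 TPM in the controls, 3740 to 4109 TPM in KHSRPi#1 and 3621 to 4131 TPM in KHSRPi#2. For 3 of the 10 every knockdown library was above every control, as for 3.1% of all tested genes. Control and knockdown means were 41.2 and 83.5 TPM for GZMB, 802 and 899 TPM for TCL1A, and 0.617 and 1.01 TPM for LILRA4. LILRA4 averaged 0.881 TPM over all libraries, under the limit of 1 TPM, and was not among the tested genes. None of the 10 had every knockdown library below the controls, and the part of these markers in the results below was not tested. IL3RA, a defining marker of these cells, is listed at 0 in every library. Whether that 0 reflects absent mRNA or the way reads were assigned cannot be told apart from TPM. Summed markers of B cells (5 genes) stayed at or below 5.49 TPM, those of T cells (5 genes) at or below 0.222 TPM and those of red cells (4 genes) at or below 0.164 TPM. Monocyte markers (5 genes) summed to between 36.9 and 91.0 TPM, nearly all of it LYZ, with overlapping ranges in the 3 groups. Depth in reads is unknown from TPM, but the spacing of low values puts the libraries between 0.979 and 1.83 times the depth of NTC replicate 1. The 3 replicate 3 libraries stood apart from the other 6: their deviations from the group means correlated at 0.622 to 0.628 with each other, against at most 0.324 between libraries that share the number 1 or 2, so results are also given from a fit with a term for replicate 3.

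Because KHSRP binds AU-rich sequence, the 3′ untranslated regions of the decay genes (GENCODE 29, hg38) were searched on the transcript strand for the pentamer ATTTA and for the nonamer TTATTTATT, which contains the pentamer. Only 1 coding transcript per gene was searched, a principal one first and then the longest, so the matches depend on that choice. The median length of the searched region was 1016 bases for the members and 1230 bases for tested genes. The pentamer was present in 27 of 35 tested members and in 72.3% of 9721 tested genes with a 3′ untranslated region. The nonamer was present in only 1 member, EXOSC6 (2.86% of members against 9.16% of those tested genes), an RNase PH-like ring subunit of the exosome. EXOSC6 lies at chr16:70246778-70251930 on the minus strand. Its 2 overlapping nonamers lie at chr16:70247244-70247272 and chr16:70247240-70247268 (hg38, minus strand, with 10 flanking bases on each side). They are shown because no other tested member held the nonamer, which is in capitals.
EXOSC6 site 1: tatatttattTTATTTATTtattaattat
EXOSC6 site 2: tttattttatTTATTTATTaattattttt
A match describes letters only and is not evidence of binding. EXOSC6 mRNA was at 73.5, 66.2 and 60.4 TPM in the controls, 59.9, 65.0 and 63.2 TPM in KHSRPi#1 and 70.6, 71.3 and 63.6 TPM in KHSRPi#2. The 3 groups overlapped, and its log2 fold change over both knockdown groups was -0.02 (SE 0.066, limma adjusted p = 0.957).

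DCP1A and DCP1B encode alternative forms of the DCP1 subunit that activates DCP2, and only DCP1A was measured above 0. DCP1A was at 29.2, 29.2 and 28.0 TPM in the controls, 27.5, 30.1 and 26.8 TPM in KHSRPi#1 and 30.4, 27.0 and 28.4 TPM in KHSRPi#2. DCP1B (chr12:1946054-2004535, minus strand) overlaps CACNA1C on the opposite strand, which is also listed at 0 in every library, as are 35.4% of all symbols. Nearby genes on either side were measured, ADIPOR2 at 56.7 to 64.1 TPM and FKBP4 at 70.8 to 79.1 TPM. Whether the 0 of DCP1B reflects absent mRNA or the way reads were assigned cannot be told apart from TPM. The 250 bases before each start site (RefSeq, GRCh38.p14) are shown for this pair because DCP1A has measured values and DCP1B is listed at 0, with the dinucleotide CG in capitals.
DCP1A, chr3:53347544-53347793, minus strand: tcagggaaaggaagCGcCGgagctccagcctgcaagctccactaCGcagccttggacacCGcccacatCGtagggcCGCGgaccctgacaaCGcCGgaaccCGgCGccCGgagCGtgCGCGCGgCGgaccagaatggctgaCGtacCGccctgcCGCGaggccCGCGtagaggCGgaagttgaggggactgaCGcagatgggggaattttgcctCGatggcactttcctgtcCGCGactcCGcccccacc
DCP1B, chr12:2004458-2004707, minus strand: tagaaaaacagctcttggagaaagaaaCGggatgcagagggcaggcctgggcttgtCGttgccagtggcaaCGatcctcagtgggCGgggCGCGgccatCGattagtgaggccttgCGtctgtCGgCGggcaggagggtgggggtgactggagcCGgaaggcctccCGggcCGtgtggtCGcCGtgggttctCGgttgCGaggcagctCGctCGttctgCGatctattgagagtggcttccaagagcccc
The DCP1A stretch has 29 CG dinucleotides and the DCP1B stretch has 20. Of 35116 promoters of the same length in that table, 87.6% have as many or fewer than DCP1A and 69.8% as many or fewer than DCP1B, and the median is 11. The 31 members found in the table (43 entries, since 8 genes have several) had a median of 22.

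The 35 tested members were abundant and steady. Their mean levels ran from 7.73 TPM for DCPS to 187 TPM for EXOSC8, with a median of 57.0 TPM against 21.2 TPM over all tested genes. The coefficient of variation over the 9 libraries had a median of 5.62% for the members and 6.95% for the 7359 tested genes within the same range of levels. The highest library was under 1.25 times the lowest for 29 of 35 members and over 1.5 times for 2, PAN2 and XRN1. Summed over all members, the level was between 2070 and 2210 TPM in each library.

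**Figure D1:**
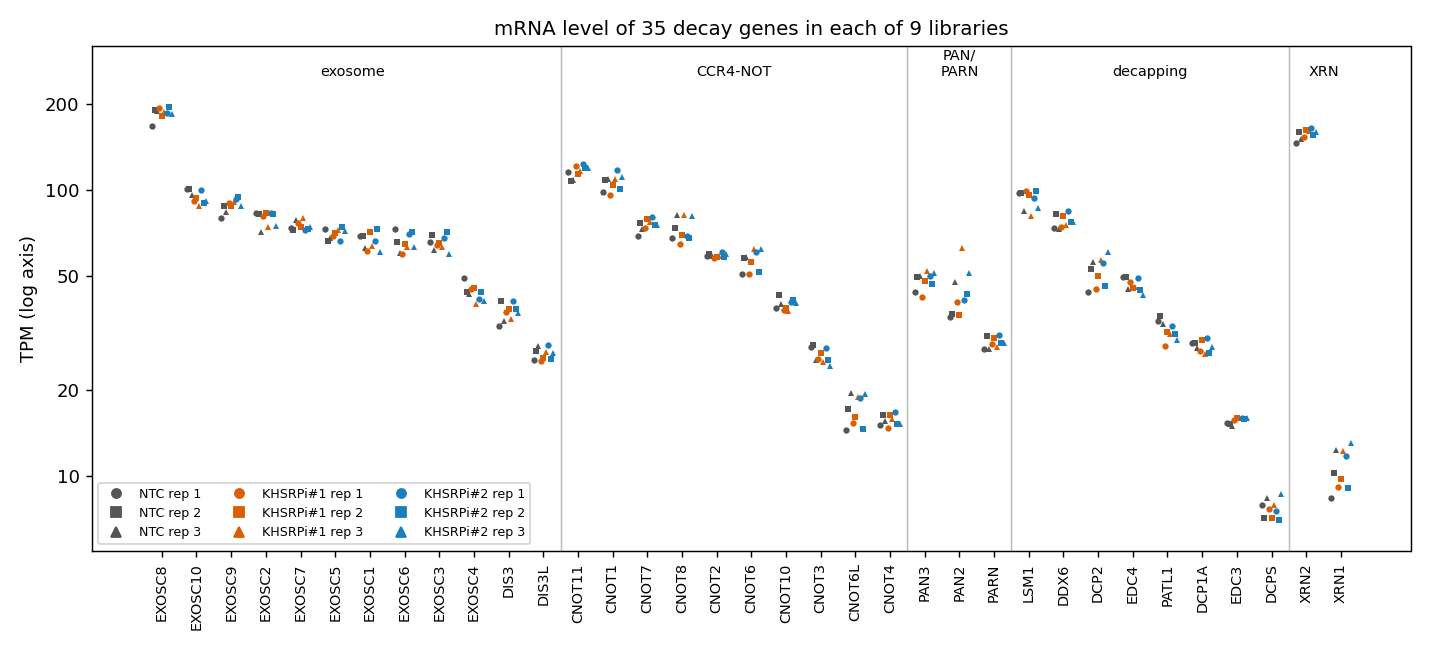
TPM (log axis) of the 35 tested decay genes, grouped by role and ordered by mean level, with 1 point per library coloured by group and shaped by replicate. The points of most genes lie close together in all 3 groups, while EXOSC8 and XRN2 are the most abundant and DCPS and XRN1 the least.

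No member passed the test for a difference between the knockdown groups and control. Over the mean of both knockdown groups limma called 0 of 35 members, against 9 of 10939 genes (0.0823%). At an unadjusted p under 0.05 there were 3 members (8.57%) against 7.93% of all tested genes. The log2 fold changes ran from -0.17 (PATL1) to 0.18 (PAN2), with a median of 0.013 against 0.018 over all genes, and were positive for 19 members and negative for 16. Their median size without regard to sign was 0.037, against 0.060 over all genes. For 33 of 35 members (94.3%, against 76.0% of all tested genes) the 95% confidence interval of the fold change lay within 1.25-fold in either direction. PAN2 and XRN1 were the exceptions, with intervals of -0.17 to 0.52 and -0.23 to 0.37 on the log2 scale. The figures for all genes were not matched for level, and their median was 21.2 TPM against 57.0 TPM for the members. The part of level in these differences was not tested.

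Neither group taken alone gave a call. In KHSRPi#1 limma called 0 of 35 members (0.0548% of all genes were called) with 1 member at an unadjusted p under 0.05 (2.86%, against 5.24% of all genes). In KHSRPi#2 it called 0 of 35 (again 0.0548% of all genes), with 3 members at that level (8.57%, against 6.93%). These groups share their controls. The difference between the knockdown groups was tested directly, and limma called 0 members and 0 of all 10939 genes (0%), with 0 members at an unadjusted p under 0.05 against 1.05% of all genes. The log2 fold change was higher in KHSRPi#2 than in KHSRPi#1 for 30 of 35 members and for 7327 of 10939 genes, with a median difference of 0.032 for the members and 0.026 for all genes.

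With the replicate 3 term the spread was smaller and the intervals of all 35 members lay within 1.25-fold for the mean of both groups. That count is not set against the share of all tested genes, so it is not a trait of the members. The test called 0 members for the mean (1.76% of all genes), 0 for KHSRPi#1 (0.676%), 0 for KHSRPi#2 (0.804%) and 0 for the difference between them (0%). Members at an unadjusted p under 0.05 numbered 5, 4, 4 and 0. These are 14.3%, 11.4%, 11.4% and 0% of the members, against 17.5%, 13.1%, 15.7% and 3.10% of all genes, and the smallest adjusted p for the mean was 0.119.

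**Figure D2:**
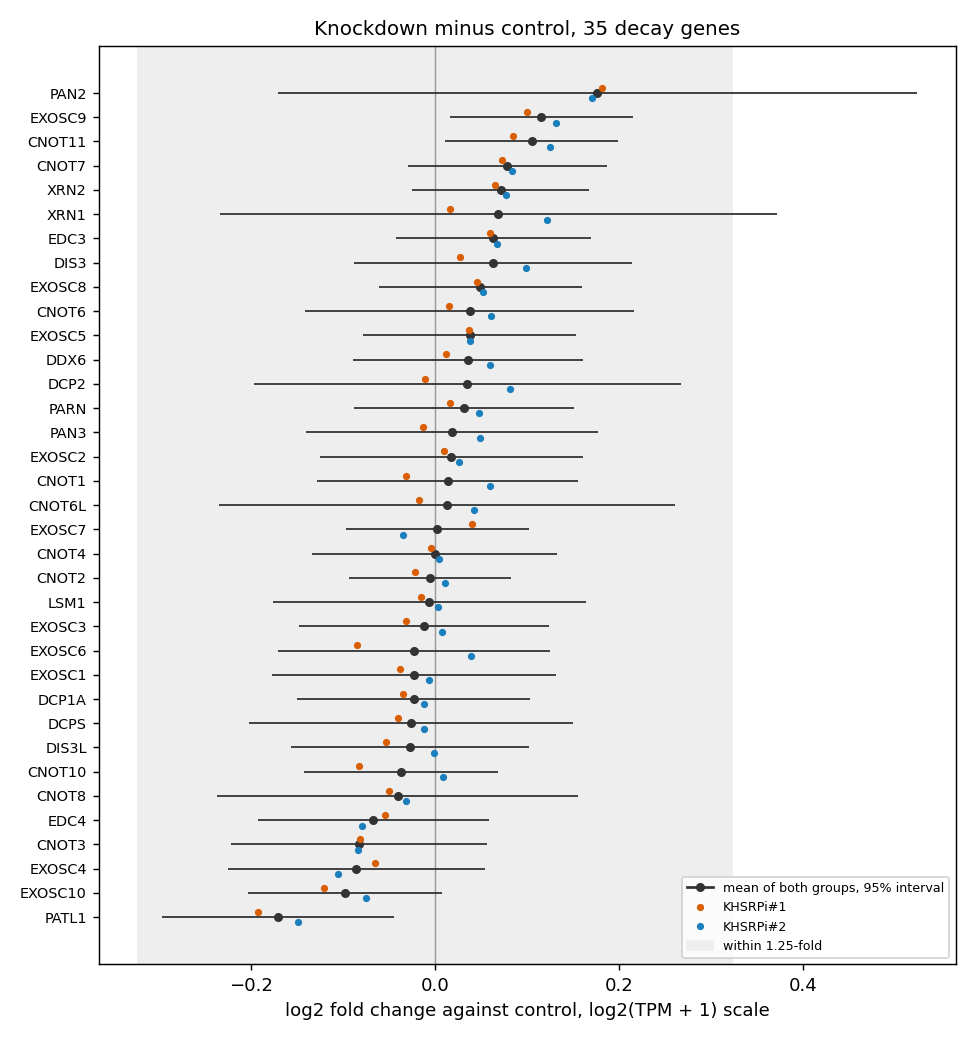
Log2 fold change against control, on the log2(TPM + 1) scale, of the 35 tested decay genes: black points and bars are the mean of both knockdown groups with its 95% interval, coloured points each group alone, and the grey band marks 1.25-fold. The intervals of PAN2 and XRN1 leave the band, and those of EXOSC9, CNOT11 and PATL1 do not reach 0 before adjustment.

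Among all 35 members, 3 had knockdown and control libraries that did not overlap, and none of them passed the adjusted test. PATL1, a scaffold that links the LSM1-7 ring and DDX6 to the decapping enzyme, was at 35.0, 36.5 and 34.1 TPM in the controls, 28.6, 32.1 and 31.5 TPM in KHSRPi#1 and 33.4, 31.4 and 30.1 TPM in KHSRPi#2. All 6 knockdown libraries were below the lowest control, as for 1.57% of all tested genes. In bulk RNA, fewer cells with a transcript and less of it per cell cannot be told apart. Its log2 fold change was -0.17 (SE 0.057, 95% interval -0.30 to -0.045, limma adjusted p = 0.512), and 0.119 was its adjusted p with the replicate 3 term. It passed the threshold in 2 of 31 alternative fits, those that rescaled the libraries by median ratio or by quantiles together with the replicate 3 term (log2 fold change -0.19 in both, adjusted p = 0.0344 and 0.0353). Over the 31 alternatives its adjusted p ran from 0.0344 to 0.970.

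EXOSC9, a ring subunit of the exosome, was at 80.0, 87.9 and 83.9 TPM in the controls, 90.1, 88.5 and 91.2 TPM in KHSRPi#1 and 92.9, 94.5 and 88.5 TPM in KHSRPi#2. EDC3, an enhancer of decapping that binds DCP2 and DDX6, was at 15.3, 15.3 and 15.0 TPM in the controls, 15.7, 16.0 and 15.9 TPM in KHSRPi#1 and 16.0, 15.8 and 16.0 TPM in KHSRPi#2. For both genes every knockdown library was above every control, as for 3.1% of all tested genes, although the closest libraries of EXOSC9 differed by less than 1 TPM. The log2 fold changes were 0.12 for EXOSC9 (SE 0.045, limma adjusted p = 0.560) and 0.06 for EDC3 (SE 0.048, limma adjusted p = 0.782). EXOSC9 shares exon sequence on the opposite strand with CCNA2, and EDC3 with CLK3. Whether counting used strand is not stated, so reads of such partners may be mixed.

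**Figure D3:**
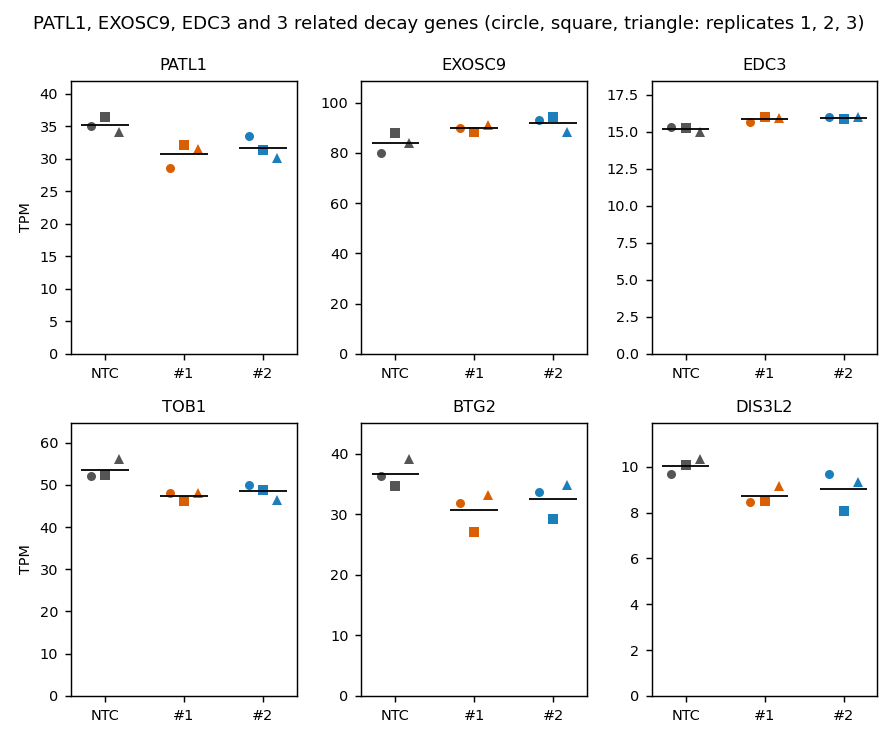
TPM in each library for PATL1, EXOSC9 and EDC3 and for 3 related decay genes, TOB1, BTG2 and DIS3L2, with group means as bars. Control and knockdown points do not overlap for PATL1, EXOSC9, EDC3 and TOB1, and they overlap for BTG2 and DIS3L2.

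The exosome is a barrel of 9 subunits with no activity of its own in human cells, to which the nucleases DIS3 or DIS3L and EXOSC10 attach. EXOSC8, a ring subunit, was its most abundant mRNA, at 168, 191 and 189 TPM in the controls, 194, 183 and 188 TPM in KHSRPi#1 and 187, 195 and 185 TPM in KHSRPi#2. In each library EXOSC8 exceeded every other member, and it was 3.39 to 4.71 times the level of EXOSC4, the least abundant of the barrel. Exons of EXOSC8 overlap SUPT20H on the opposite strand. Fold changes of the 12 exosome genes ran from -0.10 to 0.12 on the log2 scale, 6 in each direction, with a median of -0.0045.

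The 3 exosome nucleases differed in level but not detectably between groups. EXOSC10, the mainly nuclear nuclease, was at 101, 101 and 96.4 TPM in the controls, 91.8, 94.2 and 88.0 TPM in KHSRPi#1 and 100.4, 90.6 and 92.2 TPM in KHSRPi#2. Only KHSRPi#2 replicate 1 lay within the range of the controls, and the log2 fold change was -0.10 (SE 0.047, limma adjusted p = 0.646). DIS3, the nuclease of the nuclear exosome, was at 33.5, 41.0 and 35.1 TPM in the controls, 37.5, 38.4 and 35.4 TPM in KHSRPi#1 and 41.2, 38.6 and 37.4 TPM in KHSRPi#2. Its cytoplasmic relative DIS3L was at 25.5, 27.4 and 28.7 TPM in the controls, 25.3, 26.0 and 27.3 TPM in KHSRPi#1 and 28.8, 25.7 and 27.0 TPM in KHSRPi#2. The groups overlapped for both, with log2 fold changes of 0.06 for DIS3 (SE 0.068, limma adjusted p = 0.855) and -0.03 for DIS3L (SE 0.058, limma adjusted p = 0.938). DIS3 was 1.22 to 1.50 times as abundant as DIS3L in the 9 libraries. DIS3 exons overlap BORA and PIBF1 on the opposite strand.

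CCR4-NOT is the main cytoplasmic deadenylase, built on the scaffold CNOT1, and each complex holds 1 of the CCR4-type nucleases CNOT6 and CNOT6L and 1 of the CAF1-type nucleases CNOT7 and CNOT8. Its most abundant member was CNOT11, which binds the amino-terminal part of CNOT1 together with CNOT10. CNOT11 was at 116, 108 and 109 TPM in the controls, 122, 114 and 117 TPM in KHSRPi#1 and 124, 119 and 119 TPM in KHSRPi#2. All but KHSRPi#1 replicate 2 were above the highest control, and the log2 fold change was 0.11 (SE 0.042, limma adjusted p = 0.593). At the other end was CNOT4, a ubiquitin ligase, at 15.2, 16.4 and 15.6 TPM in the controls, 14.8, 16.4 and 15.9 TPM in KHSRPi#1 and 16.8, 15.3 and 15.2 TPM in KHSRPi#2, with overlapping groups. Fold changes of the 10 CCR4-NOT genes ran from -0.08 to 0.11 on the log2 scale, 5 in each direction, with a median of 0.0063.

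The nuclease pairs of CCR4-NOT were unequal to different degrees. CNOT6 was at 50.9, 58.2 and 58.7 TPM in the controls, 51.2, 56.3 and 62.3 TPM in KHSRPi#1 and 61.1, 52.0 and 62.2 TPM in KHSRPi#2. CNOT6L was at 14.5, 17.2 and 19.5 TPM in the controls, 15.4, 16.1 and 18.9 TPM in KHSRPi#1 and 18.8, 14.7 and 19.4 TPM in KHSRPi#2. CNOT6 thus exceeded CNOT6L by 3.01 to 3.54 times in each library, and neither separated the groups. CNOT7 was at 69.3, 76.6 and 73.3 TPM in the controls, 73.9, 79.2 and 77.6 TPM in KHSRPi#1 and 80.9, 75.7 and 75.8 TPM in KHSRPi#2. CNOT8 was at 68.1, 73.9 and 81.9 TPM in the controls, 64.9, 69.7 and 82.1 TPM in KHSRPi#1 and 69.5, 68.2 and 81.4 TPM in KHSRPi#2. The groups overlapped for both, with a log2 fold change of 0.08 for CNOT7 (SE 0.049, limma adjusted p = 0.726) and -0.04 for CNOT8 (SE 0.088, limma adjusted p = 0.939). Named pseudogenes of CNOT6L, CNOT7 and CNOT4 exist, and exons of CNOT7, CNOT8 and CNOT11 overlap those of VPS37A, FAXDC2 and TBC1D8 on the opposite strand, so part of their reads could be assigned either way.

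PAN2 is the nuclease that trims long poly(A) tails with its partner PAN3, and PARN is a separate poly(A) nuclease known to associate with KHSRP. PAN2 was at 36.03, 37.0 and 47.7 TPM in the controls, 40.6, 36.7 and 62.7 TPM in KHSRPi#1 and 41.3, 43.3 and 51.2 TPM in KHSRPi#2. KHSRPi#1 replicate 3 was the highest of the 9, and all groups overlapped. The log2 fold change of 0.18 had the largest error of any member (SE 0.156, limma adjusted p = 0.824), and over the 31 alternatives, none of which called it, it ran from 0.06 without KHSRPi#1 replicate 3 to 0.30 without NTC replicate 3. PAN3 was at 44.0, 49.8 and 50.0 TPM in the controls, 42.3, 48.3 and 52.2 TPM in KHSRPi#1 and 50.2, 47.2 and 51.4 TPM in KHSRPi#2. PARN was at 27.9, 30.9 and 28.0 TPM in the controls, 28.98, 30.4 and 28.3 TPM in KHSRPi#1 and 31.1, 29.2 and 29.4 TPM in KHSRPi#2. PAN3 and PARN overlapped between all groups, and PARN had a log2 fold change of 0.03 (SE 0.054, 95% interval -0.09 to 0.15, limma adjusted p = 0.915). PAN2 exons overlap those of CNPY2 on the same strand, so reads there could belong to either gene.

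Decapping was measured through DCP2, the enzyme that removes the cap, its activators, and DCPS, which hydrolyses the cap left over after exosome decay. DCP2 was at 44.3, 53.3 and 56.2 TPM in the controls, 45.2, 50.0 and 57.2 TPM in KHSRPi#1 and 55.9, 46.4 and 60.7 TPM in KHSRPi#2. DCPS was the least abundant tested member, at 7.92, 7.17 and 8.40 TPM in the controls, 7.70, 7.12 and 7.91 TPM in KHSRPi#1 and 7.58, 7.05 and 8.67 TPM in KHSRPi#2. Both overlapped between all groups, with log2 fold changes of 0.04 for DCP2 (SE 0.104, limma adjusted p = 0.957) and -0.03 for DCPS (SE 0.079, limma adjusted p = 0.957). LSM1, the subunit that sets the cytoplasmic LSM1-7 ring apart from the nuclear one, was the most abundant decapping mRNA, at 97.5, 98.2 and 84.5 TPM in the controls, 99.3, 96.6 and 81.7 TPM in KHSRPi#1 and 94.0, 99.8 and 86.9 TPM in KHSRPi#2. The helicase DDX6 stood between 73.3 and 84.5 TPM and the scaffold EDC4 between 43.0 and 49.9 TPM, with overlapping groups for both. Fold changes of the 8 tested decapping genes ran from -0.17 to 0.06 on the log2 scale, 3 positive and 5 negative.

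XRN2, the nuclear 5′ exonuclease, and XRN1, its cytoplasmic counterpart, stood at opposite ends of the range. XRN2 was at 147, 159 and 151 TPM in the controls, 153, 163 and 162 TPM in KHSRPi#1 and 166, 156 and 161 TPM in KHSRPi#2. XRN1 was at 8.38, 10.3 and 12.3 TPM in the controls, 9.17, 9.81 and 12.3 TPM in KHSRPi#1 and 11.8, 9.13 and 13.0 TPM in KHSRPi#2. XRN2 was 12.2 to 17.5 times as abundant as XRN1, and both overlapped between the groups. The log2 fold changes were 0.07 for XRN2 (SE 0.043, limma adjusted p = 0.724) and 0.07 for XRN1 (SE 0.136, limma adjusted p = 0.930).

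The cofactors of these machines were tested in the same 2 fits. Of 53 related decay genes, covering exosome cofactors, CCR4-NOT partners, decapping partners and nonsense-mediated decay factors, 52 were tested. Limma called 0 of them for the mean of both knockdown groups (0.0823% of all genes), and 0 with the replicate 3 term. At an unadjusted p under 0.05 there were 4 (7.69%) in either fit, against 7.93% of all genes without the term and 17.5% with it. Their log2 fold changes ran from -0.21 to 0.15, with a median of 0.0073, 31 positive and 21 negative.

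The smallest p-values of that list belonged to TOB1 and BTG2, anti-proliferative proteins that tether the CAF1 nucleases to mRNA. TOB1 was at 52.2, 52.4 and 56.2 TPM in the controls, 48.0, 46.3 and 48.0 TPM in KHSRPi#1 and 50.1, 48.8 and 46.4 TPM in KHSRPi#2. All 6 knockdown libraries of TOB1 were below the controls, as for 1.57% of all tested genes. Its log2 fold change was -0.16 (SE 0.047), with a limma adjusted p of 0.439, or 0.0857 with the replicate 3 term. BTG2 was at 36.3, 34.7 and 39.2 TPM in the controls, 31.8, 27.1 and 33.2 TPM in KHSRPi#1 and 33.6, 29.3 and 34.8 TPM in KHSRPi#2. KHSRPi#2 replicate 3 lay just above the lowest control, and the log2 fold change was -0.21 (SE 0.079, limma adjusted p = 0.541, or 0.0895 with the replicate 3 term). LSM6, a ring subunit shared by the nuclear and cytoplasmic LSM complexes, was between 124 and 134 TPM in the controls and between 136 and 152 TPM in the knockdown libraries (log2 fold change 0.12, SE 0.049, limma adjusted p = 0.597). Every knockdown library of LSM6 was thus above the controls, as for 3.1% of all tested genes. DIS3L2, an exosome-independent nuclease of uridylated RNA, was between 9.68 and 10.4 TPM in the controls and between 8.09 and 9.71 TPM in the knockdown libraries, which overlap (log2 fold change -0.16, SE 0.069, limma adjusted p = 0.613).

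Differences between replicate 3 and the other libraries were called for 8 members. Replicate 3 was singled out because its libraries stood apart in these same values. The p-values and calls of this contrast are therefore not independent of that choice and are given as a description. In the fit with that term, limma called 5 of 35 members higher in replicate 3 (against 18.7% of all genes) and 3 lower (against 11.6%), so the members' shares were near the background. After median-ratio rescaling the split was 5 higher and 9 lower, against 16.4% and 17.8% of all genes. Cell type markers also separated replicate 3 without overlap: LYZ averaged 38.4 TPM there and 73.9 TPM in the other 6 libraries, SPIB 44.5 and 58.1 TPM, NRP1 14.5 and 20.2 TPM, IRF8 2804 and 2371 TPM, CD79A 1.61 and 0.963 TPM, and PAX5 3.53 and 2.93 TPM. These are 3 of 10 plasmacytoid dendritic cell, 2 of 5 B cell, 1 of 5 monocyte, 0 of 5 T cell and 0 of 4 red cell markers. Of all 10939 tested genes, 1806 had every replicate 3 library above the other 6, and 1202 had every one below. The part of the markers in the members' differences was not tested. PAN2, in the values given above, was above every other library in each replicate 3 library (log2 difference 0.44, SE 0.067, limma adjusted p = 0.000596). CNOT8 was at 81.4 to 82.1 TPM in replicate 3 and at most 73.9 TPM elsewhere (log2 difference 0.24, SE 0.040, adjusted p = 0.00112 by limma). XRN1 had its 3 highest values in replicate 3 (log2 difference 0.34, SE 0.081, adjusted p = 0.00835 by limma). CNOT6L and DCP2 were also called higher, by 0.25 and 0.24 on the log2 scale (limma adjusted p = 0.0250 and 0.0205).

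The 3 members called lower were LSM1, EXOSC2 and EXOSC3, and each had its 3 lowest values in replicate 3. LSM1 differed by -0.21 on the log2 scale (SE 0.036, limma adjusted p = 0.00137). EXOSC2, an RNA-binding cap subunit of the exosome, was at 83.1, 82.7 and 71.4 TPM in the controls, 81.1, 83.1 and 74.4 TPM in KHSRPi#1 and 83.4, 82.8 and 75.2 TPM in KHSRPi#2. Its log2 difference was -0.17 (SE 0.033, limma adjusted p = 0.00340). EXOSC3, another cap subunit, was at 66.0, 69.8 and 62.1 TPM in the controls, 64.4, 65.4 and 63.5 TPM in KHSRPi#1 and 68.2, 71.3 and 59.7 TPM in KHSRPi#2, with a log2 difference of -0.13 (SE 0.042, limma adjusted p = 0.0427). Named pseudogenes of LSM1 and EXOSC3 exist, and exons of these genes overlap BAG4 and DCAF10 on the opposite strand.

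Of 4 paralog ratios, 2 separated replicate 3, given here as a description without a test. CNOT7 over CNOT8 was 0.894 to 0.945 in the replicate 3 libraries and 1.02 to 1.17 in the other 6. XRN2 over XRN1 was 12.2 to 13.2 in replicate 3 and 14.1 to 17.5 in the others. Both ratios overlapped between the knockdown groups and control. Their denominators, CNOT8 and XRN1, were called higher in replicate 3, while CNOT7 and XRN2 differed there by -0.0061 and 0.0041 on the log2 scale. The 2 separations thus restate those calls. CNOT6 over CNOT6L (3.01 to 3.29 in replicate 3, 3.26 to 3.54 in the others) and DIS3 over DIS3L (1.22 to 1.38 and 1.31 to 1.50) overlapped between replicate 3 and the rest. PAN2, CNOT8, LSM1 and EXOSC2 were called in each of the 9 fits that left out 1 library. XRN1 was lost only without NTC replicate 3, CNOT6L and DCP2 without each of the 3 replicate 3 libraries and CNOT6L also without KHSRPi#1 replicate 1, and EXOSC3 in 6 of the 9 fits. Members called fell from 8 to 4 without NTC replicate 3 (11.4%, against 16.5% of all genes) and to 5 without KHSRPi#2 replicate 3 (14.3%, against 18.01%). The labels give all libraries the same batch, and what sets replicate 3 apart was not tested.

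**Figure D4:**
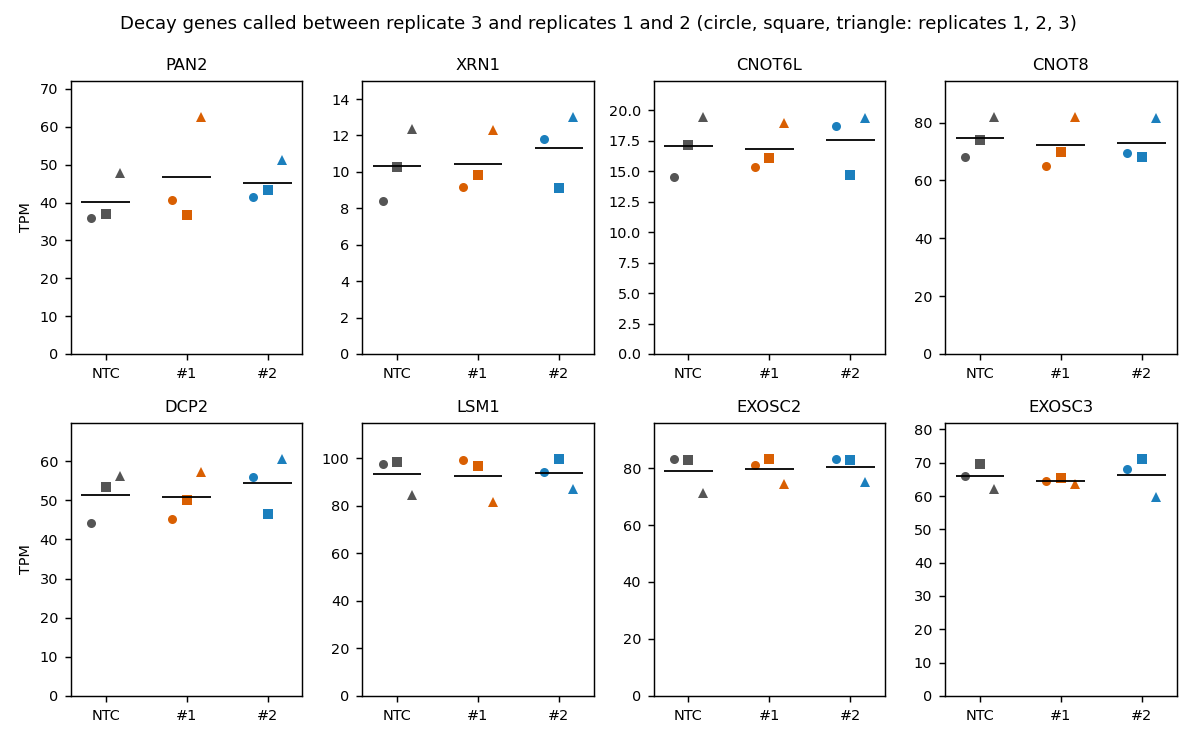
TPM in each library for the 8 decay genes called between replicate 3 and replicates 1 and 2, with group means as bars and replicates 1, 2 and 3 as circles, squares and triangles. The triangles are highest in the panels of PAN2, XRN1, CNOT6L, CNOT8 and DCP2 and lowest in those of LSM1, EXOSC2 and EXOSC3, in each of the 3 groups.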

How the data were processed

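RNA sequencing of 9 CAL-1 libraries (3 control, 3 KHSRPi#1, 3 KHSRPi#2) was used. The values are the authors' deposited TPM for each symbol, and each column sums to 1000000. Per the submitters' processing notes the build was hg38. Versions of the aligner and counter, the annotation and any use of strand were not given in the sources used here. Groups and replicate numbers come from the titles.

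Genes with a mean of at least 1 TPM were tested on log2(TPM + 1) with limma 3.58.1 in R 4.3.3 (1 fit of all libraries, eBayes with trend, two-sided). This scale understates changes of low genes. Benjamini-Hochberg adjustment ran over 10939 genes, and an adjusted p under 0.05 was called. A second fit added a term for replicate 3. The first fit was checked on simulated data with independent noise in each library. Those data held no replicate 3 shift, and the planted changes were larger than the fold change of any member. The second fit was not checked in this way. Python 3.11.15, pandas 2.3.3, numpy 2.4.6 and matplotlib 3.10.9 handled tables and figures. Positions and 3′ untranslated regions are from GENCODE 29 and promoters from RefSeq. Related genes absent under their current symbol (MTREX, SKIC2, SKIC3, SKIC8, TENT4A and TENT4B) were matched by older symbols.

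Members, lists and the replicate 3 contrast were chosen with earlier results of these data known. Values in every library are given for members called in any contrast, members whose groups do not overlap, the highest and lowest of each role, those with the 2 smallest p-values of each role and the catalytic members; EXOSC6, DCP1A and the ranges of DDX6 and EDC4 were added after their values were seen. Alternatives were pseudocounts of 0.1 and 5, other filters, scalings and variance models, a replicate block, and leaving out each library.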

Additional observations from a re-analysis of the deposited data

How the results depend on the processing

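KHSRP was called in all 31 alternatives, with log2 fold changes of -2.79 to -2.59. Counts of members called for knockdown were 0 in 125 of 127 cases, each 1 contrast under 1 alternative, and 1 (PATL1) for the mean of both groups with the replicate 3 term after median-ratio rescaling or quantile normalization. Scaling moved the median fold change of all genes from 0.018 to -0.0020 (median ratio) and -0.00050 (quantile). For replicate 3, 5 members were called with no filter (14.3%, against 16.5% of all genes), 14 after median-ratio rescaling (40%, against 34.2%) and 15 with array weights (42.9%, against 43.9%), and between 4 and 10 when 1 library was left out; the cause was not tested. Of 527 fold changes of 17 members under alternatives, 27 changed sign. CNOT6L was -0.0075 after median-ratio rescaling, -0.013 after quantile normalization (both with and without the replicate 3 term) and -0.013 with array weights, where DCP2 was -0.0019. Leaving out 1 library, with or without that term, gave ranges across 0 for DIS3 (-0.016 to 0.147), DIS3L (-0.070 to 0.010), CNOT6 (-0.027 to 0.098), CNOT6L (-0.093 to 0.109), CNOT8 (-0.104 to 0.028), PARN (-0.0049 to 0.079), DCP2 (-0.065 to 0.113), DCPS (-0.081 to 0.020) and XRN1 (-0.060 to 0.194), none of them called; leaving out NTC replicate 1, 2 or 3 gave each of these limits.

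Deviations of libraries with the same replicate number correlated at 0.040 to 0.628, over 0.1 in 8 of 9 pairs. The replicate 3 pairs stood at 0.622 to 0.628. Among replicates 1 and 2, pairs of the same number correlated at 0.040 to 0.324 and pairs of different numbers at 0.238 to 0.371. The numbers 1 and 2 thus showed no pairing of their own. With a replicate block, 0 members and 1 related gene were called, BTG2 (log2 fold change -0.21, adjusted p = 0.0420 by limma). Depth in reads is unknown from TPM, so the precision of each value rests on the replicates.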
